A study of Mus musculus with 10 samples.

Results

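The 10 genes described here are endothelial identity genes, chosen by symbol as markers and transcription factors of the vascular endothelium: *Pecam1*, *Cdh5*, *Vwf*, *Kdr*, *Flt1*, *Tek*, *Tie1*, *Sox17*, *Erg* and *Eng*. They are 10 of 55453 gene symbols in the count table, and all 10 were among the 14614 genes with enough reads to be tested. RNA-seq was performed on aortae of male C57BL/6 mice, 5 young (14.5 weeks) and 5 old (92.5 weeks), with 1 library per mouse. The strain, the sex and the lack of any treatment were shared by both groups, so that age was the only labelled difference, and the question of the study was which genes and pathways change in the aging artery. The aortae came from mice perfused with saline and were cleaned of the surrounding fat before RNA extraction. They held the whole wall, in which endothelial cells are a small minority beside smooth muscle cells and fibroblasts.

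The endothelium is the single cell layer that lines the vessel and separates blood from the wall. Its cells hold together through VE-cadherin (*Cdh5*) and PECAM-1 (*Pecam1*), read growth factors of the VEGF family through VEGFR2 (*Kdr*) and VEGFR1 (*Flt1*), and read angiopoietins through TIE2 (*Tek*) and its partner *Tie1*. Endoglin (*Eng*) is the co-receptor for BMP9 and BMP10, von Willebrand factor (*Vwf*) is a clotting glycoprotein stored in Weibel-Palade bodies, and *Sox17* and *Erg* are transcription factors of the SOX and ETS families that maintain arterial and endothelial programmes.

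The SOX and ETS families give a way to read the DNA before these genes, so the promoters that bear on the pair of factors among the members are shown first. RefSeq promoter windows of GRCm38.p6 were found for 6 of the 10 genes (*Kdr*, *Flt1*, *Tek*, *Tie1*, *Eng* and *Erg*), with 8 windows in all, since *Erg* has 3 starts. *Pecam1*, *Cdh5*, *Vwf* and *Sox17* had no entry. The 250 bases before each start were searched on both strands for the SOX words AACAAT and ACAAAG and for the ETS words AGGAAG and CCGGAA. A SOX word lay in 3 of the 8 windows, from 3 genes, and an ETS word in 5 of the 8, from 5 genes. Both kinds met in 1 window of *Eng* (chr2:32646345-32646594, plus strand) and in 1 window of *Erg* (chr16:95459349-95459598, minus strand), whose other 2 windows held neither. *Tek* (chr4:94739039-94739288, plus strand) is shown as well because it was the single member past edgeR's test of the age difference over all 10 mice. Each window is printed 5′ to 3′ on the strand of its gene, ending at the base before the start, with the matched words in capitals.
Tek: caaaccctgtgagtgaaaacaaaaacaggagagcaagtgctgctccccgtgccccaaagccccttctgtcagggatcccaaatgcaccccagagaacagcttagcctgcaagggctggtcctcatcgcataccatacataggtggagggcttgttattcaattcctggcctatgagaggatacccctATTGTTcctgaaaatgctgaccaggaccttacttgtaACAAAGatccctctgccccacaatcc
Eng: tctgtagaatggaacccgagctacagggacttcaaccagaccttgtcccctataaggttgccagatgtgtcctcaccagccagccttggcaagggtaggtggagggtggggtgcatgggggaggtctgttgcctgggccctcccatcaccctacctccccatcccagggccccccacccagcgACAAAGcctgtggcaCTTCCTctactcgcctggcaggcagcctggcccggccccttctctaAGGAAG
Erg: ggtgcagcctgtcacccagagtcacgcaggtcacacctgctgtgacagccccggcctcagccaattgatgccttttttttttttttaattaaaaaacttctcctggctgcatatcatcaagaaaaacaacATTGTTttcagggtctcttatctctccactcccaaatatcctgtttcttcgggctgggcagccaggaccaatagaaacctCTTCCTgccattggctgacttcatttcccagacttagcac
In the *Tek* window AACAAT was read on the opposite strand, 63 to 58 bases before the start, and ACAAAG on the gene's strand, 26 to 21 bases before it. The *Eng* window held ACAAAG 67 to 62 bases before the start and AGGAAG at 52 to 47 bases on the opposite strand and at 6 to 1 bases on its own. The *Erg* window held AACAAT at 120 to 115 bases and AGGAAG at 40 to 35 bases, both on the opposite strand. Such short words are common: of 32851 promoter windows of this length, 24.0% held a SOX word, 38.2% an ETS word and 8.24% both. The matches describe the letters of these windows and say nothing of binding.

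Expression is given below as normalized counts, which are read counts divided by the DESeq2 size factor of the library. Total counts per library ranged from 19640401 to 22886153, and the 10 genes together took 0.0784% to 0.188% of them. The label of the tissue held against its markers, since smooth muscle actin (*Acta2*) had 390587 ± 31099 normalized counts in young mice and 348817 ± 33917 in old mice (SD, n = 5). The summed mesothelial markers stayed at or below 36.9. One library stood apart before any comparison: old replicate 2 had 11% of its counts on mitochondrial genes, against 4.50% to 6.51% in the other 9. It also had the lowest summed smooth muscle markers of all 10 mice, at 821310 normalized counts. The calls of the 10 genes and of the related lists are given with and without it below, and which library to leave out of the lists was chosen after the data were seen.

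Levels of different genes were set in order per kilobase of exon, as normalized counts per kilobase. In young aortae *Pecam1* was the highest of the 10 genes at 1764 ± 381 per kilobase (SD, n = 5), and its range did not overlap that of any other member. *Eng* followed at 857 ± 64.5. Then came *Erg* at 540 ± 72.0, *Cdh5* at 482 ± 118, *Vwf* at 479 ± 141, *Tek* at 371 ± 102 and *Tie1* at 318 ± 57.6, and each of these neighbours overlapped the next. *Flt1* (84.3 ± 11.1), *Sox17* (59.8 ± 9.72) and *Kdr* (42.2 ± 22.7) formed a lower tier, with the highest value of any of the 3 genes, 91.3, far below the lowest value of *Tie1*, 267.

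The order in old aortae kept *Pecam1* on top at 1064 ± 333 per kilobase (SD, n = 5), but its range now overlapped that of *Eng* (738 ± 72.7). *Erg* was the third at 591 ± 62.6, overlapping *Eng*, with its lowest old value, 531, above the highest old value of *Cdh5*, 463. *Cdh5* (316 ± 93.2), *Vwf* (254 ± 118), *Tie1* (215 ± 57.9) and *Tek* (202 ± 58.2) overlapped each other. *Flt1* (98.7 ± 22.3) lay above *Sox17* (46.4 ± 9.65) and *Kdr* (40.9 ± 15.0) in the mean. The ranges of *Flt1* and *Sox17* did not overlap, and those of *Sox17* and *Kdr* did. Exon length was taken over all annotated transcripts, so a gene whose short transcripts dominate is placed too low.

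When old and young aortae were compared, 1 of the 10 genes passed the test (edgeR's quasi-likelihood test, adjusted p below 0.05 over all 14614 genes), and it was lower in the old group. None was higher. Over all tested genes 11.5% were called, 4.99% as lower and 6.48% as higher, so 1 of 10 is near the background. Of the 10 fold changes, 8 were negative, against 49.2% of all tested genes, and the median log2 fold change of the 10 was -0.46, against 0.00 over all genes. At an unadjusted p below 0.05 there were 7, each with a negative fold change, against 12.6% of all tested genes lower at that cut, and neither DESeq2 nor limma-voom called any of the 10 higher. In RNA from whole aorta, fewer endothelial cells and less RNA per endothelial cell cannot be told apart.

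**Figure D1:**
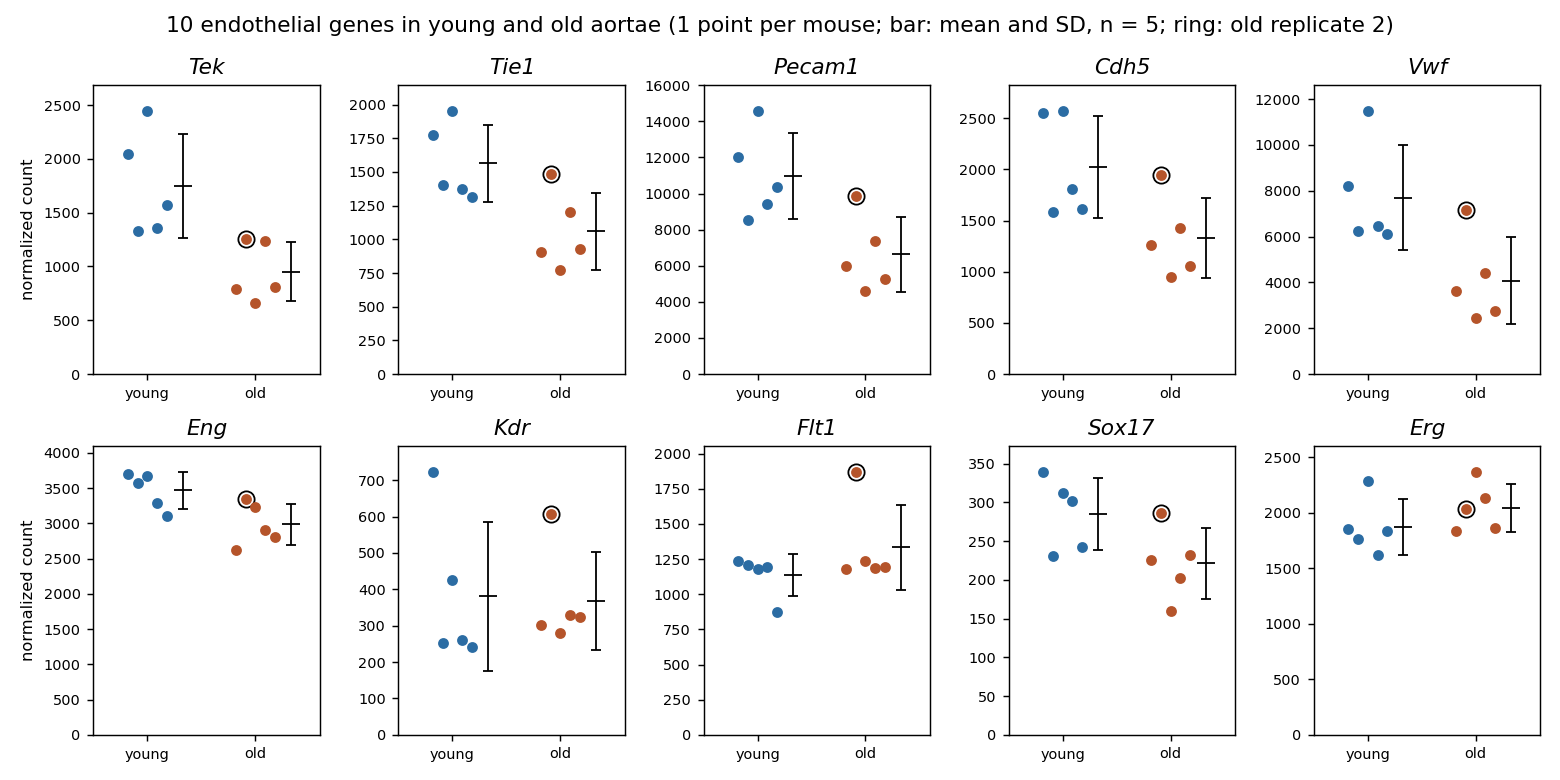
Normalized count (y axis) of each of the 10 genes in the 5 young and 5 old aortae (x axis); each point is a mouse, the bars give the mean and SD, and a ring marks old replicate 2. The groups are apart only for *Tek* (young 1325 to 2443, old 656 to 1253), and for *Pecam1*, *Cdh5*, *Vwf* and *Tie1* the ringed mouse is the only old mouse within the young range.

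The angiopoietin receptors held the called gene. *Tek* (chromosome 4, 94739289 to 94874976, GRCm38) encodes TIE2, the receptor that angiopoietin-1 activates. Its normalized counts were 2045, 1325, 2443, 1361 and 1571 in young replicates 1 to 5 and 795, 1253, 656, 1233 and 813 in old replicates 1 to 5. Every old mouse was below every young mouse, a pattern that 4.55% of all tested genes showed in this direction and 5.37% in the other, although the highest old mice came close to the lowest young ones. *Tek* fell from 1749 ± 482 to 950.1 ± 274 (SD, n = 5; log2 fold change -0.87, SE 0.23, edgeR adjusted p = 0.0381). The call was a narrow one: with 1 mouse left out at a time, the edgeR adjusted p ran from 0.0307 to 0.0859, and it was above 0.05 without young replicate 1, 3 or 5 and without old replicate 1, 3 or 5.

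*Tie1* (chromosome 4, 118471191 to 118490061) encodes a receptor without a firmly established ligand that pairs with TIE2. It had 1777, 1406, 1950.2, 1371 and 1310.5 normalized counts in young mice and 906, 1484, 771, 1202 and 928 in old mice. Old replicate 2 was above the 3 lowest young mice, and the other 4 old mice were below all young ones. The means were 1563 ± 283 and 1058 ± 285 (SD, n = 5; log2 fold change -0.56, SE 0.18, edgeR adjusted p = 0.0769), which did not pass edgeR's test. DESeq2 called *Tie1* lower on the same mice (DESeq2 adjusted p = 0.0118). Within mice, the log2 ratio of *Tek* to *Tie1* was 0.14 ± 0.18 in young mice and -0.16 ± 0.11 in old mice, a difference of -0.30. An exact two-sided permutation test gave p = 0.0238 and 0.0794 after adjustment over the 4 pairs of members tested in this way, where 0.0079 is the smallest p that 5 against 5 mice allow. The ratio tests were added after the counts had been seen.

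Around these receptors, 6 genes of ligands and regulators were tested, of which 1 was called higher and 2 lower, with a median log2 fold change of 0.02. Angiopoietin-2 (*Angpt2*), the context-dependent antagonist of TIE2, rose from 1655 ± 225 to 2095 ± 110.0 normalized counts (log2 fold change 0.35, SE 0.09, edgeR adjusted p = 0.0199), with every old mouse above every young one. *Ptprb*, the endothelial phosphatase that dephosphorylates TIE2, fell from 6861 ± 1556 to 4059 ± 1110.3 (log2 fold change -0.75, SE 0.20, edgeR adjusted p = 0.0396), and it belongs to the pan-endothelial genes below as well. The angiopoietin-like gene *Angptl1* had 172 ± 56.5 and 99.9 ± 24.7 (edgeR adjusted p = 0.0499). It kept the call under 6 of 20 alternative analyses, losing it without old replicate 2 (edgeR adjusted p = 0.0894), and 13.3% of its 50-base windows occur in the antisense transcript *Gm37802*. Angiopoietin-1 (*Angpt1*), the agonist, was between 60.5 and 134 in young mice and between 91.3 and 164 in old mice and was not called (log2 fold change 0.36, edgeR adjusted p = 0.375).

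Neither of the junction and adhesion genes passed edgeR's test over all 10 mice. On the same mice DESeq2 called both lower (DESeq2 adjusted p = 0.0260 for *Pecam1* and 0.0179 for *Cdh5*), and limma-voom called *Pecam1* lower. The paper, which used DESeq2, lists *Pecam1* among its downregulated genes of extracellular matrix organization. *Pecam1* (chromosome 11, 106654217 to 106750628) encodes an adhesion molecule of the borders between endothelial cells that platelets and leukocytes carry too. Its normalized counts were 12016, 8556, 14559, 9444 and 10367 in young mice and 5996, 9851, 4627, 7395 and 5261 in old mice. Only old replicate 2 reached the young range, where it was above young replicates 2 and 4. The group means were 10989 ± 2371 and 6626 ± 2076 (SD, n = 5; log2 fold change -0.72, SE 0.21, edgeR adjusted p = 0.0554).

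*Cdh5* (chromosome 8, 104101625 to 104144511) encodes VE-cadherin, the cadherin of endothelial adherens junctions. It had 2557, 1583, 2569, 1812 and 1614 normalized counts in young mice and 1265, 1945, 948, 1427 and 1054 in old mice. The pattern resembled that of *Pecam1*, with old replicate 2 above the 3 lowest young mice and the remaining old mice below all of them. The means were 2027 ± 497 and 1328 ± 392 (SD, n = 5; log2 fold change -0.60, SE 0.22, edgeR adjusted p = 0.108). The log2 ratio of *Pecam1* to *Cdh5* was 2.45 ± 0.17 in young mice and 2.31 ± 0.05 in old mice and did not differ by the exact permutation test (p = 0.111, adjusted 0.148).

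Of 18 tested junction partners, 3 were called lower and none higher, and their median log2 fold change was -0.10. *Heg1*, a transmembrane partner of the CCM complex, fell from 8189 ± 832 to 5754 ± 681 normalized counts (log2 fold change -0.50, SE 0.09, edgeR adjusted p = 0.00401). *Ctnnd1*, p120-catenin, which binds the cadherin tail, had 870.4 ± 41.8 and 709 ± 22.9 (log2 fold change -0.29, edgeR adjusted p = 0.00477), but 56.7% of its 50-base windows occur in the overlapping gene *Gm28635* on the same strand, so its reads are uncertain. The tight junction gene *Ocln* fell from 53.7 ± 10.3 to 31.0 ± 8.19 (log2 fold change -0.79, edgeR adjusted p = 0.0356). The most abundant partners, *Ctnnb1* and *Vcl*, are made by many cell types of the wall. *Ctnnb1* had a log2 fold change of -0.10 (edgeR adjusted p = 0.301) and *Vcl* of -0.26 (edgeR adjusted p = 0.127).

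*Vwf* (chromosome 6, 125546774 to 125686679) had the most negative fold change of the 10 genes and the largest coefficient of variation between old mice, 46.5%. Its normalized counts were 8224, 6222, 11467, 6462 and 6130.2 in young mice and 3638, 7178, 2443, 4398 and 2742 in old mice. Old replicate 2 was above 3 of the 5 young mice, while the other 4 old mice were below all young mice. The means were 7701 ± 2272 and 4080 ± 1895 (SD, n = 5), with a log2 fold change of -0.91 and a 95% confidence interval from -1.61 to -0.21 (edgeR adjusted p = 0.0946).

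Of 10 tested genes that von Willebrand factor partners with or that share its storage granules, 3 were called higher and 1 lower. Endothelin-1 (*Edn1*), the vasoconstrictor peptide that endothelial cells store and release, was the lower one (log2 fold change -1.72, SE 0.21, edgeR adjusted p = 0.000445). In old aortae it had 104 to 193 normalized counts, against 397 to 741 in young. Tissue plasminogen activator (*Plat*) rose from 2395 ± 118 to 3184 ± 359 (log2 fold change 0.42, edgeR adjusted p = 0.00350). The granule GTPase *Rab3d* rose from 2354 ± 102 to 2785 ± 143 (log2 fold change 0.25, edgeR adjusted p = 0.0101), and the third higher gene was *Angpt2*. *Cd63*, which is not restricted to endothelium, had a log2 fold change of 0.04 (edgeR adjusted p = 0.765). Across the 10 tested genes 6 had negative fold changes, and the median log2 fold change was -0.43. Which cells of the wall made these transcripts was not tested.

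The VEGF receptors had no common direction, and neither passed the test. *Kdr* (chromosome 5, 75932827 to 75978458) encodes VEGFR2, the main signalling receptor for VEGF-A. It had 723, 253, 425, 261 and 243 normalized counts in young mice and 303, 608, 281, 329.7 and 324 in old mice. A single mouse was high in each group, young replicate 1 and old replicate 2, and the rest lay between 243 and 425. The means were 381 ± 205 and 369 ± 135 (SD, n = 5), and the 95% confidence interval of the log2 fold change, from -0.82 to 0.74 around -0.04, leaves room for a change in either direction (edgeR adjusted p = 0.960). The same pair of mice had the highest sums of the capillary endothelial markers in their groups, at 25391 and 20236 normalized counts against 12018 to 17498 in the other 8, and young replicate 1 had the highest sum of adipocyte markers, at 23519 against 2886 to 11609 elsewhere. The part of these markers in the *Kdr* values was not tested.

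*Flt1* (chromosome 5, 147561604 to 147726011) encodes VEGFR1, whose soluble form traps VEGF-A. Its normalized counts were 1233, 1207, 1180.5, 1196 and 873 in young mice and 1178, 1869, 1239, 1188 and 1191 in old mice. Most of the mice, 8 of 10, lay between 1178 and 1239, with young replicate 5 below and old replicate 2 above. The log2 fold change was 0.24 (95% confidence interval -0.07 to 0.55, edgeR adjusted p = 0.323) and fell to 0.08 without old replicate 2. The log2 ratio of *Kdr* to *Flt1* was -1.71 ± 0.61 in young mice and -1.89 ± 0.19 in old mice (exact permutation p = 0.595, unchanged by the adjustment).

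Of 8 tested VEGF ligands and co-receptors, 1 was called lower and none higher. The ligand *Vegfa* fell from 952 ± 129 to 694 ± 79.3 normalized counts (log2 fold change -0.45, SE 0.10, edgeR adjusted p = 0.0133), and it passed the test under each of 20 alternative analyses. Old replicate 2 had the highest old value, 797, which was above young replicate 5 at 773. The most abundant of the list, the co-receptor *Nrp1* (log2 fold change -0.08, edgeR adjusted p = 0.583) and the ligand *Vegfd* (log2 fold change 0.24, edgeR adjusted p = 0.214), were not called. Without old replicate 2, *Vegfd* was called higher (log2 fold change 0.34, edgeR adjusted p = 0.0191). That mouse had the lowest old value of *Vegfd*, so leaving it out favoured the call in advance.

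*Eng* (chromosome 2, 32646595 to 32682669) had the smallest spread between mice of the 10 genes, with a coefficient of variation of 7.53% in young mice and 9.86% in old mice. It had 3708, 3568, 3677, 3284 and 3111 normalized counts in young and 2630.2, 3341, 3229, 2913 and 2814 in old mice. The 2 highest old mice were within the young range and the 3 others below it. The log2 fold change was -0.21 (SE 0.08, edgeR adjusted p = 0.101), so that the 95% confidence interval, from -0.38 to -0.04, excludes a fall as large as that estimated for *Tek*.

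Of 14 other tested genes of the BMP9/BMP10-endoglin pathway, 4 were called lower, against 4.99% of all tested genes, and none higher. Their median log2 fold change was -0.14. The type I receptor *Acvrl1* (ALK1), which endoglin serves, fell from 2425 ± 74.0 to 2051 ± 203 normalized counts (log2 fold change -0.23, SE 0.07, edgeR adjusted p = 0.0412), a call kept under 9 of 20 alternatives. The effector *Smad1* fell from 703 ± 77.5 to 484 ± 21.8 (log2 fold change -0.53, edgeR adjusted p = 0.00100). The target *Id1* fell from 1742 ± 291 to 1143 ± 86.4 (log2 fold change -0.60, edgeR adjusted p = 0.00282), and *Id3* from 4016 ± 374 to 3227 ± 361 (log2 fold change -0.31, edgeR adjusted p = 0.0315), a call kept under 11 of 20 alternatives and lost without old replicate 2 (edgeR adjusted p = 0.0578). *Acvrl1*, *Smad1* and *Id1* did not overlap between the groups, a pattern that 4.55% of all tested genes showed in this direction. The ligand gene *Gdf2* (BMP9) had 27 reads in the whole series and *Bmp10* none, so neither transcript could be tested in the aorta. The ligand proteins were not measured. *Smad1* and *Id1* are expressed by other cells of the wall as well.

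The transcription factors among the members parted in sign, and neither passed. *Sox17* (chromosome 1, 4490931 to 4497354) had 339, 231, 312, 301 and 243 normalized counts in young mice and 226, 287, 160.3, 202 and 232 in old mice. Old mice filled the lower part of the range (log2 fold change -0.36, SE 0.15, edgeR adjusted p = 0.144). An antisense gene, *Gm37587*, overlaps 16.8% of the exonic sequence of *Sox17*, and the strand setting of the counting is not given in the sources used here, so that its reads could be included.

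*Erg* (chromosome 16, 95359169 to 95586593) encodes the ETS factor that activates many endothelial genes, *Cdh5* among them. Its normalized counts were 1859, 1765, 2287, 1620.4 and 1833 in young mice and 1839, 2033, 2369, 2134 and 1864 in old mice. The groups lay over each other, with old mice in the upper part, and the 95% confidence interval of the log2 fold change ran from -0.07 to 0.34 around 0.14 (edgeR adjusted p = 0.393). A fall in *Erg* of the size estimated for *Tek*, *Vwf* or *Pecam1* lies outside that interval. The log2 ratio of *Sox17* to *Erg* was -2.72 ± 0.26 in young mice and -3.23 ± 0.42 in old mice, a difference of -0.51 (exact permutation p = 0.0397, adjusted 0.0794).

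Of 18 other endothelial transcription factors tested, 1 was called lower and none higher, with a median log2 fold change of -0.10. It was *Foxo1*, a forkhead factor that acts in many cell types, which fell from 1846 ± 123 to 1390.1 ± 75.0 normalized counts (log2 fold change -0.40, SE 0.06, edgeR adjusted p = 0.00109). *Etv2*, the embryonic ETS factor, had no read in any library. The SOXF relatives of *Sox17* were not called, with log2 fold changes of -0.36 for *Sox7* (edgeR adjusted p = 0.142) and -0.08 for *Sox18* (edgeR adjusted p = 0.861), and the ETS relative of *Erg*, *Fli1*, had -0.01 (edgeR adjusted p = 0.973).

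**Figure D2:**
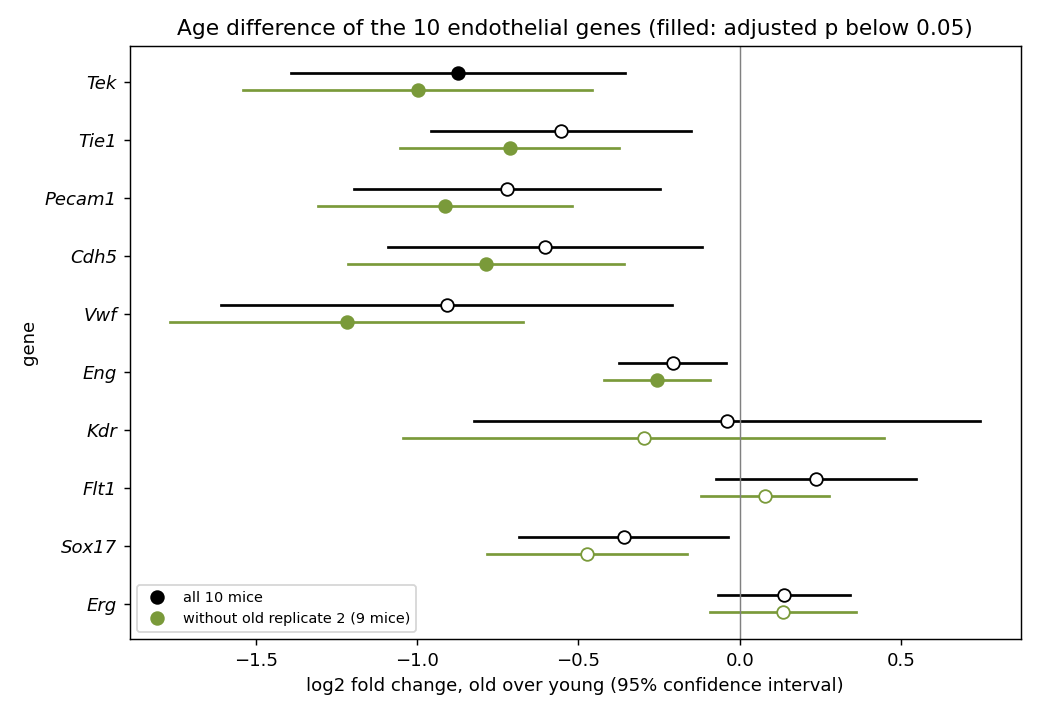
Log2 fold change of old over young aortae (x axis) with its 95% confidence interval for each gene (y axis), over all 10 mice (black) and without old replicate 2 (green); filled points passed an edgeR adjusted p of 0.05. Over all mice only *Tek* is filled, and without old replicate 2 *Tek*, *Tie1*, *Pecam1*, *Cdh5*, *Vwf* and *Eng* are.

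The number of genes that passed rested on single mice. It was 0 without any 1 of the 6 mice whose loss ended the call of *Tek*, and it rose without old replicate 2. In that case, 6 of 10 genes were called lower and none higher, against 4.52% called lower and 5.93% called higher over all genes tested on those 9 mice. *Vwf* then had a log2 fold change of -1.22 (SE 0.24, edgeR adjusted p = 0.0145), *Pecam1* of -0.91 (SE 0.18, edgeR adjusted p = 0.0108) and *Cdh5* of -0.79 (SE 0.19, edgeR adjusted p = 0.0296). *Tek* was at -0.998 (edgeR adjusted p = 0.0307), *Tie1* at -0.71 (edgeR adjusted p = 0.0158) and *Eng* at -0.26 (edgeR adjusted p = 0.0488). *Sox17* missed the threshold at -0.47 (edgeR adjusted p = 0.0537), and *Kdr* (-0.30), *Flt1* (0.08) and *Erg* (0.13) remained far from it. All 4 remaining old mice were then below all 5 young mice for *Pecam1*, *Cdh5*, *Vwf*, *Tek* and *Tie1*, which is 5 of 10 genes against 5.63% of all tested genes. Old replicate 2 had the highest old value in all 6 called genes, so leaving it out favoured these counts in advance. The shares over all genes were not taken from genes in which that mouse was highest. They are thus no like measure, and no enrichment is read from 6 or 5 of 10. With DESeq2 over all 10 mice, 4 genes were called lower (*Pecam1*, *Cdh5*, *Tek* and *Tie1*; background 7.40%), and with limma-voom 4 (*Pecam1*, *Vwf*, *Tek* and *Tie1*; background 5.07%). The summed normalized counts of the 10 genes showed the same 1 mouse: they were 26116 to 40869.5 in young aortae, 16723 to 22423 in 4 old aortae and 29849 in old replicate 2.

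Within each age group most of the genes were high or low in the same mice. After removal of the group means, 44 of the 45 pairs of members correlated positively over the 10 mice, with a median Pearson r of 0.66, which was 0.53 without old replicate 2. An exact permutation of the mice within each group gave an adjusted p below 0.05 over the 45 pairs for 17 of them by Pearson's r and for 14 by Spearman's rho. No share over pairs of other genes stands beside these counts, so they are not read as particular to endothelial genes. Without the 2 mice farthest from the median of 1 gene of the pair, r ran from 0.26 to 0.94 over the 17 pairs that passed by Pearson's r. The lowest was *Kdr* with *Flt1*, which had r = 0.66 over all mice (exact permutation p = 0.0157, adjusted 0.0442). Its rho was 0.47 (exact permutation p = 0.196, adjusted 0.327). The closest pair was *Pecam1* and *Vwf*, with r = 0.97 (exact permutation p = 0.000278, adjusted 0.0039) and rho = 0.90 (exact permutation p = 0.00375, adjusted 0.0307). The r was 0.93 without the 2 mice farthest from the median of *Pecam1*. *Pecam1* and *Tek* had r = 0.94 (exact permutation p = 0.000208, adjusted 0.0039), rho = 0.95 (exact permutation p = 0.000417, adjusted 0.00938), and r = 0.94 without the 2 farthest mice. No pair with *Erg* passed, the highest r being 0.59 with *Eng* (exact permutation p = 0.09, adjusted 0.15) and rho 0.65 (exact permutation p = 0.0647, adjusted 0.127), and 0.58 with the 2 farthest mice left out.

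**Figure D3:**
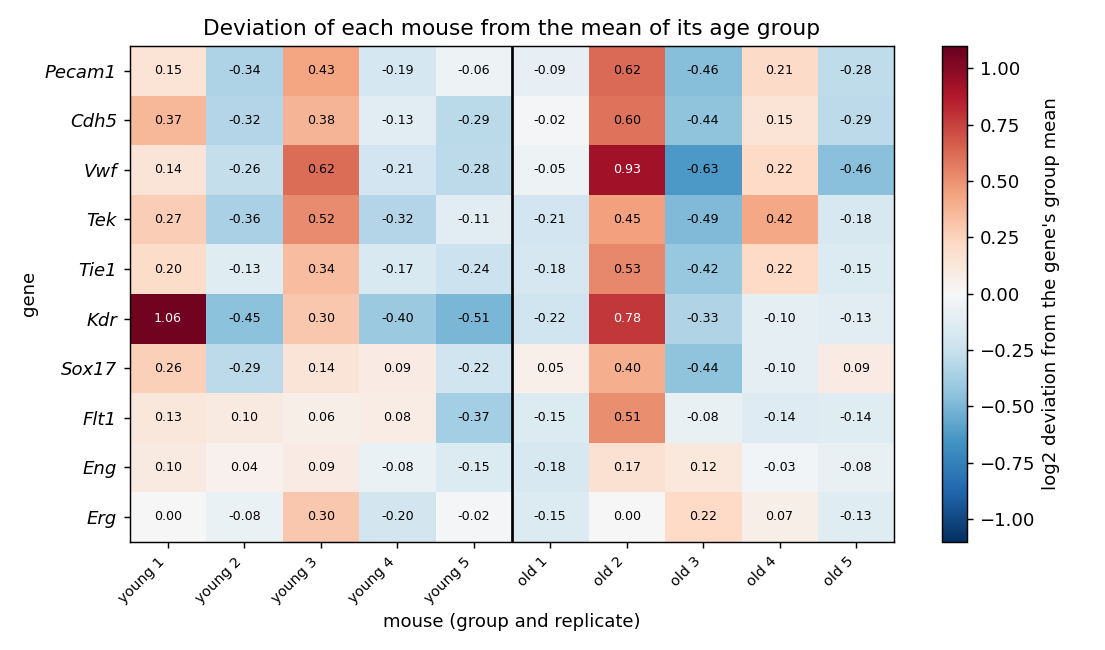
Log2 deviation of each mouse (x axis) from the mean of its age group for each gene (y axis), with the colour scale from low (blue) to high (red). Young replicates 1 and 3 and old replicate 2 are high for most genes, as in *Vwf* (0.14, 0.62 and 0.93), whereas *Erg* is at 0.00 in old replicate 2.

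The deviations came mostly from a few mice. Old replicate 2 was above its group by 0.62 log2 units for *Pecam1*, 0.60 for *Cdh5*, 0.93 for *Vwf* and 0.78 for *Kdr*. Old replicate 3 was below by -0.46, -0.44, -0.63 and -0.33 for the same genes, yet above by 0.22 for *Erg* and 0.12 for *Eng*. Young replicate 3 was high for *Vwf* (0.62), *Tek* (0.52) and *Pecam1* (0.43). Mitochondrial shares were 6.17% and 6.22% in young replicates 1 and 3 against 4.50% to 4.80% in the other young mice, and 11% in old replicate 2. Among the other old mice the order differed, with 6.51% in old replicate 1, which was below its group in every gene but *Sox17*, and 5.49% in old replicate 4, which was above its group in *Tek* (0.42), *Tie1* (0.22) and *Vwf* (0.22). Young replicates 1 and 3 and old replicate 2 had the lowest sums of smooth muscle markers in their groups, at 866244, 926869 and 821310 normalized counts against 932485 to 1027850 in the other 7 mice. The same mice had the highest sums of erythrocyte markers in their groups, at 3640, 3397 and 4560 normalized counts. The other young mice had 718 to 2298, and the other old mice 809 to 3037. Old replicate 3, which had the lowest sum of the 10 genes, had the highest sum of leukocyte and macrophage markers, at 13908 against 6420 to 8023 in the other old mice. The part of these differences in the age comparison was not tested.

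The genes outside the list whose deviations were most like the mean of the 10 were *Tbc1d8* (r = 0.98), *Ecscr* (0.97), *Samd12* (0.96), *Dipk2b* (0.96), *Crybg1* (0.95), *Egfl7* (0.95), *Mmrn2* (0.95) and *Srcin1* (0.95), over 10 mice and with no test, since they were picked by this value. *Ecscr*, *Egfl7* and *Mmrn2* are endothelial genes in their own right. For single members the most alike gene was *Crybg1* for *Pecam1*, *Arhgef15* for *Cdh5*, *Arhgap31* for *Vwf*, *Megf6* for *Tek*, *Tbc1d8* for *Tie1*, *Gcdh* for *Kdr*, *4930481A15Rik* for *Flt1*, *Rinl* for *Eng*, *Nod2* for *Sox17* and *Tipin* for *Erg*, with r from 0.95 to 0.99. Of the distinct genes among these, *Megf6* was called lower in old aortae (log2 fold change -0.78, edgeR adjusted p = 0.0346).

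**Figure D4:**
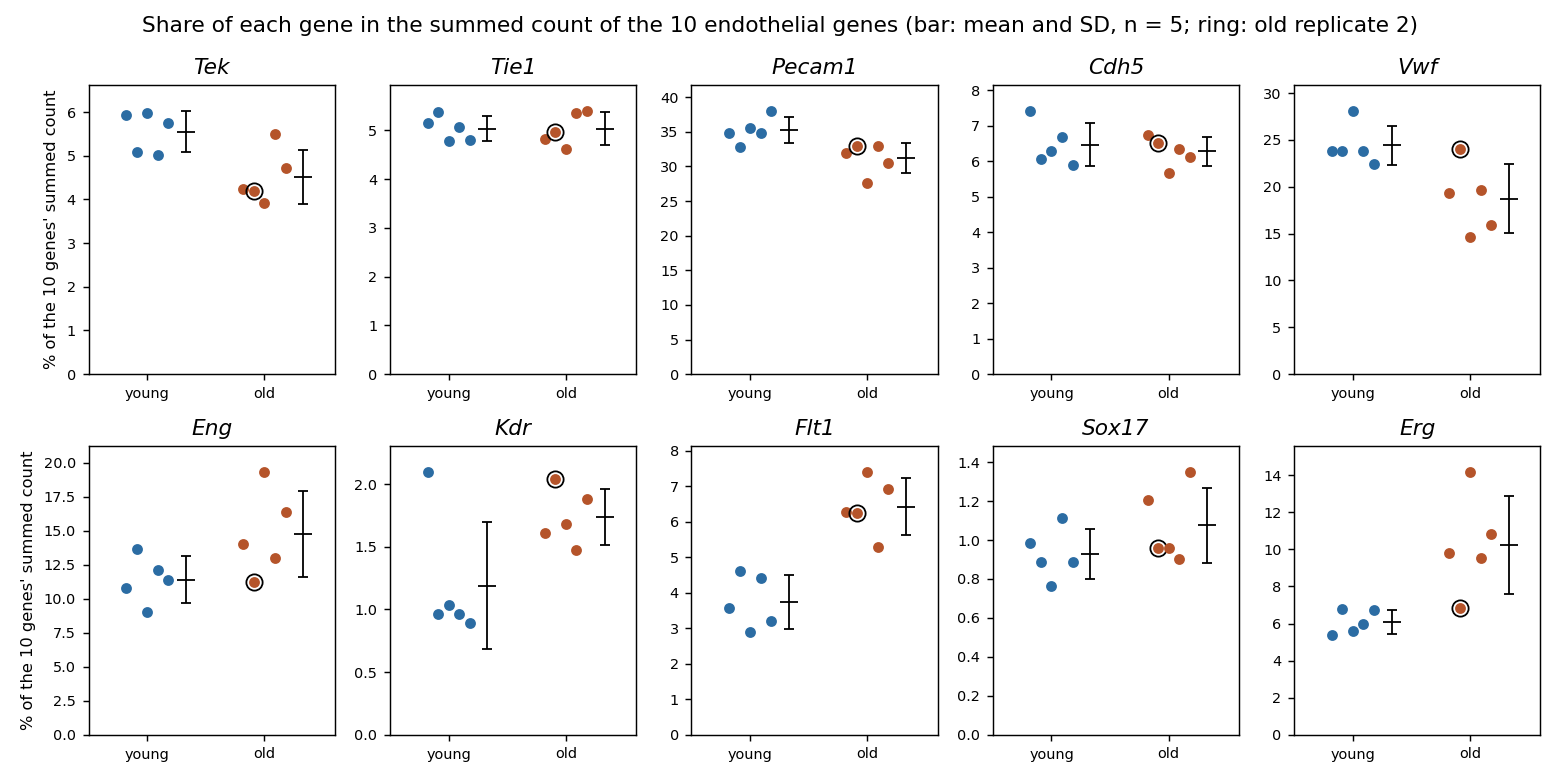
Share of each gene in the summed normalized count of the 10 genes, in percent (y axis), for the 5 young and 5 old aortae (x axis); points are mice, bars the mean and SD, and the ring old replicate 2. The groups are apart for *Flt1* (young 2.89% to 4.62%, old 5.30% to 7.41%) and for *Erg* (young 5.39% to 6.76%, old 6.81% to 14.2%).

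The make-up of the summed count was taken next, as the share of each gene in the summed normalized counts of the 10, a measure that the library scaling does not touch. From mouse to mouse *Erg* and *Eng* followed the other members least, with median r of 0.28 and 0.47. Whether other cells of the wall added to the counts of *Erg*, *Eng* or *Flt1* was not tested. *Pecam1* and *Vwf* had the largest mean shares of the 10 genes in both groups, with 35.2% ± 1.88 and 24.4% ± 2.13 in young mice and 31.2% ± 2.23 and 18.7% ± 3.69 in old mice (SD, n = 5). The share of *Flt1* was 3.74% ± 0.75 in young and 6.43% ± 0.79 in old mice, and that of *Erg* 6.09% ± 0.63 and 10.2% ± 2.66, without overlap in either gene. For *Erg* the gap was narrow, since the share in old replicate 2 was 6.81% and the highest young share 6.76%. A higher share without overlap is no rare feature, as 16.1% of all tested genes showed it when divided by the same sum. *Eng* had 11.4% ± 1.72 and 14.8% ± 3.15, and *Tek* 5.55% ± 0.47 and 4.52% ± 0.62, and both overlapped. *Tie1* held 5.03% ± 0.25 and 5.03% ± 0.34, and *Cdh5* 6.47% ± 0.60 and 6.28% ± 0.41.

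**Figure D5:**
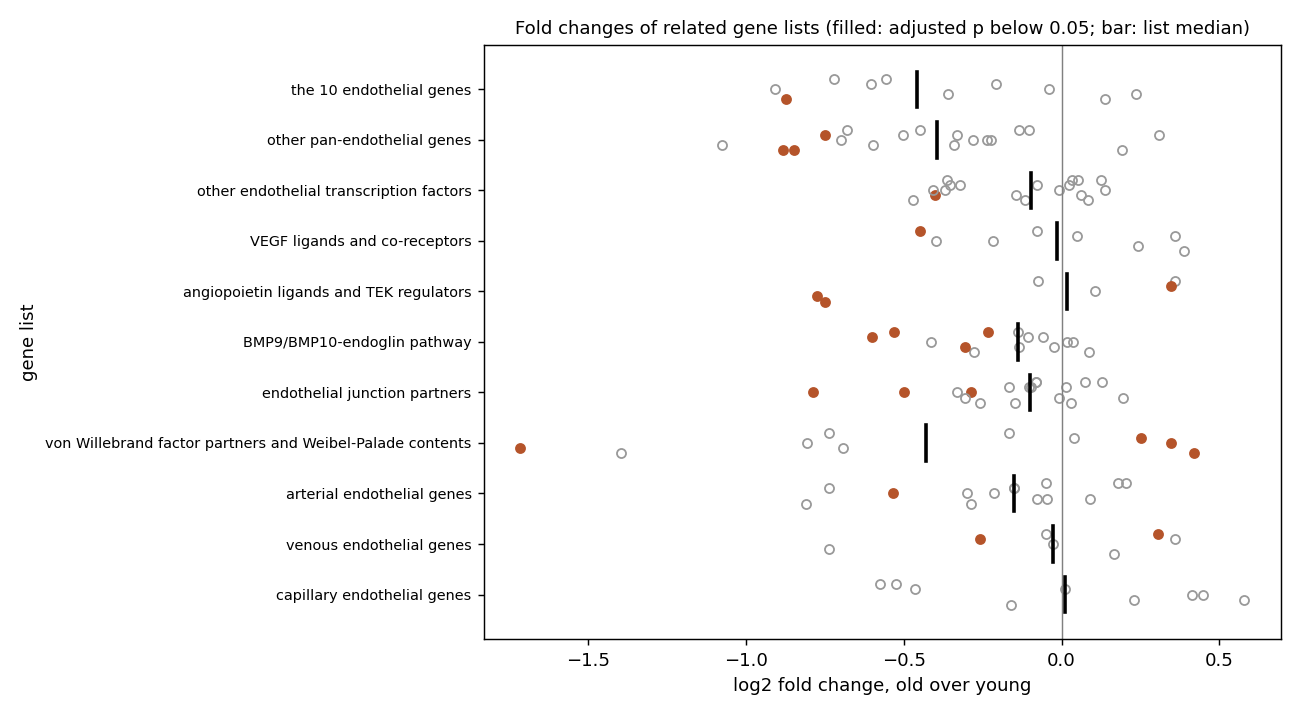
Log2 fold change of old over young (x axis) of every tested gene in the 10 endothelial genes and in related lists (y axis); filled points passed an edgeR adjusted p of 0.05 and bars are list medians. The medians run from -0.46 in the 10 genes, -0.43 in the von Willebrand factor list and -0.39 in the other pan-endothelial genes to 0.01 in the capillary and 0.02 in the angiopoietin list.

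A further list held 18 pan-endothelial genes outside the 10. All were tested, 16 had negative fold changes, 3 were called lower and none higher (10 and 1 at an unadjusted p below 0.05), and the median was -0.39. *Clec14a*, an endothelial lectin, fell from 1077 ± 338 to 580.4 ± 138 normalized counts (log2 fold change -0.88, SE 0.22, edgeR adjusted p = 0.0288). The adhesion molecule *Icam2* fell from 581 ± 127 to 322 ± 109 (log2 fold change -0.85, SE 0.22, edgeR adjusted p = 0.0340), and the third gene was *Ptprb*. Of 20 alternatives, 14 kept the call of *Clec14a*, 10 that of *Icam2* and 10 that of *Ptprb*, and all 3 calls were lost with the replicate block, without a low-count filter and without young replicate 1 or old replicate 1, 3 or 5. The most abundant, *Cd34*, which fibroblasts share, had a log2 fold change of -0.23 (edgeR adjusted p = 0.101), and endothelial nitric oxide synthase (*Nos3*) had -0.60 (edgeR adjusted p = 0.110). The paper, which used DESeq2, describes *Nos3* as downregulated and lists *Icam2* among its downregulated genes. Genes on the opposite strand overlap 32.3% of the exonic sequence of *Nos3*, so their reads could be included. As for the 10 genes, the count of calls rested on old replicate 2, which had the highest old sum of this list, at 27310 normalized counts. Without that mouse 10 of 18 were called lower, against 4.52% of all tested genes. With all mice DESeq2 called 8 lower (7.40% of all tested genes) and limma-voom 7 (5.07%). As that mouse had the highest old sum, leaving it out favoured the count of 10 in advance, and no enrichment is read from it.

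Lists of vessel type held few calls. Of 14 arterial genes, 1 was called lower, the arterial ephrin *Efnb2*, which fell from 1992 ± 280 to 1368 ± 234 normalized counts (log2 fold change -0.53, SE 0.12, edgeR adjusted p = 0.0151). Among the 14, 11 had negative fold changes and the median log2 fold change was -0.15. At an unadjusted edgeR p below 0.05, 5 were lower and none higher, against 12.6% of all tested genes lower. DESeq2 and limma-voom each called 2 arterial genes lower and none higher. Of 7 venous genes, *Nr2f2* (COUP-TFII), which specifies venous identity, rose from 1665 ± 122 to 2048 ± 248 (log2 fold change 0.31, edgeR adjusted p = 0.0330), and the ephrin receptor *Ephb4* fell from 1319 ± 138 to 1097 ± 77.1 (log2 fold change -0.26, edgeR adjusted p = 0.0460). *Nr2f2* is expressed by fibroblasts and other mesenchymal cells as well, and of the 20 alternatives 12 kept the call of *Nr2f2* and 8 that of *Ephb4*. None of 9 capillary and none of 6 lymphatic genes passed edgeR's test, and neither DESeq2 nor limma-voom called any of them. At an unadjusted p below 0.05 there were 0 capillary genes and, among the lymphatic ones, 1 higher and 1 lower. The lymphatic median log2 fold change was -0.38. Without old replicate 2, the arterial connexin *Gja5* (log2 fold change -1.03, edgeR adjusted p = 0.0215), the capillary gene *Plvap* (-0.84, edgeR adjusted p = 0.0301), the transcription factor *Klf4* (-0.51, edgeR adjusted p = 0.0236) and the clotting factor *F8* (-1.098, edgeR adjusted p = 0.0330) were called lower as well, against 4.52% of all tested genes. That mouse had the highest old value in each of these genes, so leaving it out favoured the calls in advance. The median then was -0.23 for the capillary and -0.31 for the venous list, against 0.01 and -0.03 over all mice. These medians too rest on leaving out a mouse that was chosen after the data were seen.

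Markers of the other cells of the wall are given as they stand beside these results. Of 9 smooth muscle markers 1 was called higher (*Smtn*, log2 fold change 0.29, edgeR adjusted p = 0.0217), and their summed normalized counts were 866244 to 1027850 in young mice and 821310 to 989151 in old mice. Of 8 fibroblast markers 4 were called lower, among them *Col3a1* (log2 fold change -0.93, edgeR adjusted p = 0.000241), and *Lum* was called higher. Of 6 tested leukocyte and macrophage markers 3 were called higher (*Fcgr1*, *Cd68* and *Adgre1*, log2 fold changes 0.98, 0.83 and 0.80), with sums of 4925 to 6546 in young mice and 6420 to 13908 in old mice. Of 4 platelet markers *Itga2b* was called higher (log2 fold change 0.70, edgeR adjusted p = 0.0385), a call kept under 11 of 20 alternatives and lost without old replicate 2 (edgeR adjusted p = 0.0625). *Gp1ba*, the platelet receptor for von Willebrand factor, had the opposite sign at few counts (15.9 ± 9.09 and 5.91 ± 2.88 normalized counts, log2 fold change -1.40, edgeR adjusted p = 0.0605), and DESeq2 called 2 of the 4 higher and 1 lower. The sum of the platelet markers was 289 to 442 in young mice and 416 to 692 in old mice. Platelets and megakaryocytes carry *Pecam1* and *Vwf* as well. Of 7 adipocyte markers none was called by edgeR (4 lower at an unadjusted p below 0.05), 2 by DESeq2 and 1 by limma-voom, both as lower, with a median log2 fold change of -1.003 and sums of 5965 to 23519 in young mice and 2886 to 8323 in old mice. None of 6 pericyte and none of 5 erythrocyte markers was called by edgeR, DESeq2 or limma-voom (1 and 0 at an unadjusted p below 0.05). The erythrocyte sums were 718 to 3640 normalized counts in young mice and 809 to 4560 in old mice. The part of these cells in the endothelial values was not tested.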

How the data were processed

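RNA was sequenced from 10 mouse aortae, 5 young and 5 old, from TruSeq Stranded mRNA libraries. The authors trimmed reads with fastp 0.20.0, aligned them to GRCm38 with STAR 2.7.0f and counted them per gene with featureCounts of Subread 1.6.4. The deposited table holds these counts, whole and not normalized, for 55453 symbols. The labels put the old group at 92.5 weeks, and the paper gives a slightly different age. The strand setting of the counting is not given in the sources used here.

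The age groups were compared with edgeR 4.0.16 in R 4.3.3 (filterByExpr, TMM, robust quasi-likelihood F test, no covariates), with p-values adjusted by the Benjamini-Hochberg method over the 14614 tested genes of 28011 with a count and called below 0.05. DESeq2 1.42.0 gave the size factors behind the normalized counts and an alternative test, and limma 3.58.1 another. Symbols were matched to the GENCODE annotation of GRCm38 for position, exonic length and overlaps. Ratios of members were compared by exact two-sided permutation tests. Correlations used log2(normalized count + 1) with the group means removed, and exact permutations within groups. Promoters were read from RefSeq. The fits were tested on simulated data.

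The members and gene lists were chosen with earlier results of these data known. Named are all members. In each related list, the genes called (up to 5 per direction by p) and the 2 with the highest mean are given as well, and for likeness the 8 genes closest to the members' mean and the closest to each member. *Sox7*, *Sox18*, *Fli1*, *Nos3*, *Angpt1*, *Gdf2*, *Bmp10*, *Etv2*, *Gp1ba*, *Gja5*, *Plvap*, *Klf4* and *F8* were named after their values were seen. Counts of 2 libraries of a group differed 8.06 to 58.8 times more than counting error gives (chi-square per degree of freedom, 20 pairs), so the spread between mice, not depth, sets the precision. Alternatives were other tools, scalings, filters and thresholds, a GC and length correction, a replicate block and leaving out each mouse.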

Additional observations from a re-analysis of the deposited data

Results flagged for a closer look

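In 13 of 188 groups of 5 mice examined, the highest or lowest mouse stood far from the other 4, by Dixon's criterion for 5 values, which chance meets in about 1 in 20 groups. Among the 10 endothelial genes this held for *Kdr* in old replicate 2 (608 normalized counts, the others 281 to 329.7), for *Flt1* in old replicate 2 (1869, the others 1178 to 1239) and for *Flt1* in young replicate 5 (873, the others 1180.5 to 1233). In shares of the summed 10 genes it held for *Kdr* in young replicate 1 (2.10%, the others 0.890% to 1.04%) and for *Vwf* in young replicate 3 (28.1%, the others 22.5% to 23.9%).

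Old replicate 2 stood apart in genes outside the list too, with 289767 normalized counts of *Acta2* (the others 358035 to 377025), 476 of *Ecscr* (the others 237 to 292), 64.3 of *Dipk2b* (the others 16.8 to 26.0) and 107 of *4930481A15Rik* (the others 55.0 to 63.4). *Ecscr*, *Dipk2b* and *4930481A15Rik* were picked because they follow the endothelial genes from mouse to mouse, so their values in this mouse are not separate evidence. *4930481A15Rik* was also low in young replicate 5, at 42.0 (the others 59.9 to 66.8). Old replicate 3 was high in the macrophage genes *Fcgr1* (130, the others 71.9 to 86.9) and *Csf1r* (3203, the others 1549 to 1936). *Col1a1* was low in young replicate 3, at 44381 (the others 59989 to 66097).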

How the results depend on the processing

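The count of endothelial genes called lower in old aortae, 1 of 10 with edgeR, depended on the analysis. It was 4 with DESeq2, 4 with limma-voom, 6 with limma-voom and sample quality weights (8.29% of all tested genes) and 2 with a GC content and exonic length correction (5.63%). It was 0 at a threshold of 0.01, 0 without a low-count filter and 0 with a replicate block, and with 1 mouse left out at a time it ran from 0 to 6. The count of genes whose groups do not overlap, with all old mice lower, was 1 and ran from 1 to 5 with a mouse left out, with the 5 reached without old replicate 2. No analysis called a member higher. *Kdr* was the only gene to change sign, from a log2 fold change of -0.04 to 0.031 with limma-voom, 0.192 with sample quality weights and 0.033 with the replicate block, and it ran from -0.30 without old replicate 2 to 0.32 without young replicate 1. It passed no test. The numbers of young and old mice did not pair: same-numbered mice correlated at -0.29 to 0.13 in their deviations, and 4 of 10 mice were closest to their own number. *Tek* lost its call with the replicate block (edgeR adjusted p = 0.178) and without a low-count filter (edgeR adjusted p = 0.101). The causes of these differences were not tested. Among the members, *Sox17* and *Kdr* had the fewest reads.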
